A study of Mus musculus with 16 samples.

Results

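S100a5, Pcp4l1, Lrrc3b, Rasgrp4 and Plcxd3 are 5 genes linked to the activity of olfactory sensory neurons (OSNs), the odor-detecting cells of the nose. They were taken by name from the array's gene annotation, which gave each of them 1 feature, so that they make up 5 of the 19572 features tested. The samples were 16 Clariom S arrays of mouse olfactory mucosa, a 1-colour array that reports 1 summarized value per gene, on a log2 scale on which each unit is a 2-fold step. The C57BL/6 mice carried the reporter S100a5-tauGFP, in which S100a5 drives a green fluorescent protein, and cells of each pool of 3 mice were sorted by fluorescence into a pair of fractions. All 24 animals, of both sexes and 7 to 12 weeks old, sat alone in chambers with an airflow of 3.1 L/min for 40 h.

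From 26 h onward, the odor animals received 10 s pulses of a mixture of undecanal and bourgeonal, an aliphatic and an aromatic aldehyde, at intervals of 20 min. The vehicle animals received pulses of filtered air. There were 4 odor pools and 4 vehicle pools, with 4 arrays in each of the 4 groups, made from 50 to 100 ng of RNA. All mice carried the reporter, and no array came from mice without it. The sample titles and the cell type entries state opposite GFP status on all 16 arrays. The titles were followed here, so the names titled GFP− and titled GFP+ mean no more than the title, and each fraction difference is titled GFP− minus titled GFP+. S100a5, which drives the reporter, had more signal in titled GFP− in each of the 8 pools, against the titles, and every direction between fractions below carries that conflict.

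OSNs adjust the transcription of a set of genes to how often their receptor is stimulated, through cyclic AMP and calcium entering at the cilia. S100a5 is among the best known of these genes and encodes a small EF-hand calcium-binding protein. Pcp4l1 encodes a small relative of PCP4, a protein that binds calmodulin. Lrrc3b encodes a membrane protein with leucine-rich repeats, and Plcxd3 a protein with the X domain of phosphatidylinositol-specific phospholipase C. Rasgrp4 encodes an exchange factor that loads Ras with GTP when diacylglycerol is present, and outside the nose it is known mainly from mast cells and other myeloid cells.

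The 250 bases before the start of each gene are shown because regulation by activity is usually looked for there. They were taken from RefSeq on GRCm38.p6, whose table matched 4 of the 5 genes. The stretches are chr3:90608272-90608521 on the + strand for S100a5, chr1:171196269-171196518 on the − strand for Pcp4l1, chr14:15438988-15439237 on the − strand for Lrrc3b and chr15:4375241-4375490 on the + strand for Plcxd3. Capitals mark the only match to any of the 7 motifs searched.
S100a5: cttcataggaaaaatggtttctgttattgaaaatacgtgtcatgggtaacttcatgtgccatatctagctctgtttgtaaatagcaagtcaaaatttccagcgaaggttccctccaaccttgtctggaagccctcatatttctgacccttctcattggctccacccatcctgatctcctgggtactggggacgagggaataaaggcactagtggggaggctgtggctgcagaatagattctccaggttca
Pcp4l1: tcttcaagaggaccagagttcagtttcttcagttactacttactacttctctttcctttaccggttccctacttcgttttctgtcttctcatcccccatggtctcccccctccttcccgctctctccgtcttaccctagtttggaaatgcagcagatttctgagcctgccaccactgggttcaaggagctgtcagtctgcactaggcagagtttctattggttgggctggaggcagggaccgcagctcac
Lrrc3b: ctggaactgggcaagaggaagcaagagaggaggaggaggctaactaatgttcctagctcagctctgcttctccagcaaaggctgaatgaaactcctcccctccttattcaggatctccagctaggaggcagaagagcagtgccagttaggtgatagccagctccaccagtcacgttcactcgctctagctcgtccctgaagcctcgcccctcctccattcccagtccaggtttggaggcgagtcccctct
Plcxd3: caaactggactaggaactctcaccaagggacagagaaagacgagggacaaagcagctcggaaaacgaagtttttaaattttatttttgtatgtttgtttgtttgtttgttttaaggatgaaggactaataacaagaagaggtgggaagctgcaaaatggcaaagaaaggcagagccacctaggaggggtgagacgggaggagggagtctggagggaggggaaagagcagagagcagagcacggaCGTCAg
The motifs were searched on both strands. The cAMP response element TGACGTCA is held by 1.55% of 32851 promoter stretches of the same length, its core TGACG, which lies within it, by 17.8%, and the AP-1 site TGANTCA by 6.75%. The Olf/EBF site is held by 0.779%, the homeodomain site TAATTA by 4.84%, the MEF2 site by 3.2% and the Egr site GCGTGGGCG by 0.536%. The single match was the core TGACG in Plcxd3, read on the − strand as CGTCA from 6 to 2 bases before the start. G and C made up 46.0% of the stretch of S100a5, 51.6% of Pcp4l1, 56.0% of Lrrc3b and 46.8% of Plcxd3, against a median of 52.4% over all stretches.

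Whether a gene stood above background was read from 5222 negative control probe sets, whose 95th percentile lay between 9.14 and 10.88 by array (log2 signal). S100a5, Pcp4l1 and Lrrc3b lay above that level on all 16 arrays. Rasgrp4 lay above it on 3 arrays, all of replicate 1, and Plcxd3 on 0 of 16. Plcxd3 was brighter than 77.6% to 93.7% of the negative controls, so its differences are given in log2 units and not as folds, as are those of Rasgrp4. Array medians of the tested features were 6.77 to 6.84 in titled GFP− and 7.10 to 7.32 in titled GFP+. Omp, the marker protein of mature OSNs, averaged 18.4 to 18.6 in the 4 groups, and the 18 mature OSN markers together averaged 15.73 to 15.82 per array in titled GFP− and 15.42 to 15.64 in titled GFP+.

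Between the fractions, 4 of the 5 genes differed in the same direction. Lrrc3b, Pcp4l1 and S100a5 were higher in titled GFP− under both treatments, by about 1 to 2 log2 units. Plcxd3 passed in the same direction with signals within background, and Rasgrp4 did not pass the test in either treatment. The test was limma's moderated test, with Benjamini-Hochberg adjustment over all 19572 features at 0.05. In vehicle pools 4 of 5 were called higher where 7.05% of all features were, and in odor pools 4 of 5 against 12.2%. Over both treatments 4 of 5 were, against 21.9%. S100a5, on whose reporter the cells were sorted, is among these 4, and the genes were chosen with earlier results of these data known. The counts are thus a description and not a test of the 5 genes. The median difference of the 5 genes was 1.23 in vehicle pools, 1.31 in odor pools and 1.15 over both, beside 0.13, 0.14 and 0.15 over all features. RNA of sorted cells in bulk cannot tell more cells that express a gene from more RNA per cell.

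**Figure D1:**
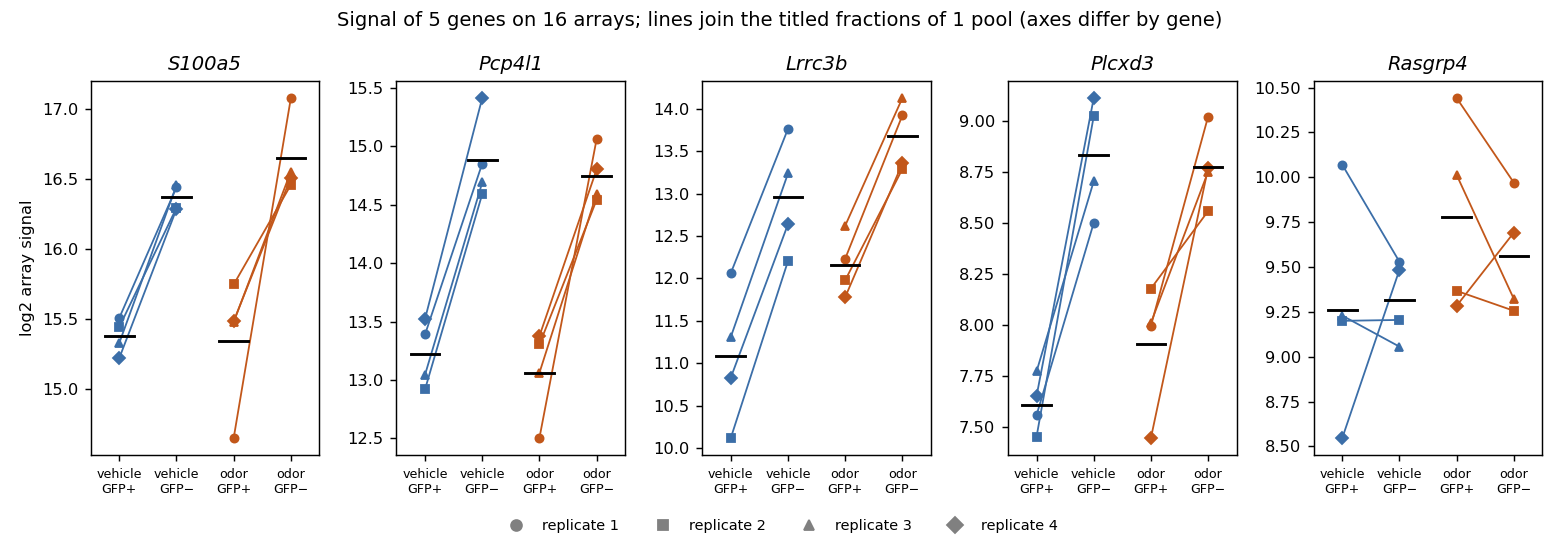
Log2 array signal of each gene (vertical axis, its own range per panel) in the 4 groups (horizontal axis); symbols are replicates, lines join the fractions of a pool and black bars are means of 4 arrays. The lines of S100a5, Pcp4l1, Lrrc3b and Plcxd3 rise from titled GFP+ to titled GFP− in all 8 pools, and those of Rasgrp4 run both ways.

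S100a5, the calcium-binding protein gene on which the sort was based, had log2 signals in vehicle pools of 15.51, 15.44, 15.33 and 15.22 in titled GFP+ and 16.44, 16.30, 16.46 and 16.29 in titled GFP−. In odor pools it stood at 14.65, 15.75, 15.48 and 15.48 in titled GFP+ and at 17.08, 16.46, 16.56 and 16.51 in titled GFP−. The fractions did not overlap under either treatment, as was so for 12.3% of all features in this direction in vehicle and 14.2% in odor pools. The lowest and the highest of the 16 values both came from odor replicate 1, whose titled GFP+ array also had the highest background level of all arrays. The fitted difference was 0.995 ± 0.20 (SE, n = 4 pools) in vehicle pools (limma adjusted p = 0.001858), or 1.99-fold with a 95% interval of 1.49 to 2.67. In odor pools it was 1.31 ± 0.20 (limma adjusted p = 0.0001555), or 2.48-fold with an interval of 1.85 to 3.32, and 0.94 without odor replicate 1. The cells were sorted on this gene's reporter, so its difference is a check of the fraction labels.

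The S100a5 signal was also present in the fraction where it was lower. On each titled GFP+ array S100a5 was brighter than at least 99.1% of the negative controls. What share of those cells carried the signal was not measured. The order of group means was odor titled GFP−, vehicle titled GFP−, vehicle titled GFP+ and odor titled GFP+, at 16.65 ± 0.29, 16.37 ± 0.09, 15.38 ± 0.13 and 15.34 ± 0.48 (SD, n = 4 each). The last pair overlapped.

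Pcp4l1, the relative of the calmodulin-binding PCP4, had log2 signals of 13.39, 12.92, 13.05 and 13.52 in titled GFP+ and 14.85, 14.59, 14.69 and 15.41 in titled GFP− of vehicle pools. In odor pools they were 12.50, 13.30, 13.06 and 13.38 in titled GFP+ and 15.06, 14.54, 14.59 and 14.80 in titled GFP−. The fractions stood at least 1 log2 unit apart on all arrays, and odor replicate 1 again held the lowest titled GFP+ value. Fractions without overlap, at any distance, were seen for 12.3% of all features in this direction in vehicle and 14.2% in odor pools. The fitted difference was 1.67 ± 0.22 (SE, n = 4) in vehicle and 1.69 ± 0.22 in odor pools (limma adjusted p = 3.464e-05 and 3.177e-05). Over both treatments this was 3.2-fold, with an interval of 2.55 to 4.02. By group mean, vehicle titled GFP− (14.89 ± 0.37) was followed by odor titled GFP− (14.75 ± 0.24), vehicle titled GFP+ (13.22 ± 0.28) and odor titled GFP+ (13.06 ± 0.40). Treatments overlapped within each fraction.

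Lrrc3b, the leucine-rich repeat gene, also separated the fractions within every pool. In vehicle pools its log2 signals were 12.06, 10.12, 11.31 and 10.83 in titled GFP+ and 13.76, 12.20, 13.24 and 12.64 in titled GFP−. In odor pools they were 12.23, 11.98, 12.62 and 11.78 in titled GFP+ and 13.92, 13.29, 14.13 and 13.36 in titled GFP−. Both fractions split the replicates alike. In either treatment, the order of the 4 replicates by titled GFP+ signal put replicates 1 and 3 above 2 and 4. So did the order by titled GFP−. Odor and vehicle pools are different mice, so this split follows the replicate number and not only the pool. The fitted difference was 1.88 ± 0.38 in vehicle and 1.52 ± 0.38 in odor pools (SE, n = 4; limma adjusted p = 0.001936 and 0.008725), or 3.69- and 2.87-fold.

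With the pool as a block, the SE of Lrrc3b narrowed to 0.119, with adjusted p of 2.99e-06 and 1.289e-05 by limma. Within pools the differences ran only from 1.31 to 2.09, with a mean of 1.70 ± 0.24 (SD, n = 8 pools). The odor titled GFP− group had the highest mean at 13.67 ± 0.42 (SD), above vehicle titled GFP− at 12.96 ± 0.68, odor titled GFP+ at 12.15 ± 0.36 and vehicle titled GFP+ at 11.08 ± 0.82. Each neighbouring pair in that order overlapped.

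Plcxd3, with its phospholipase C X domain, had log2 signals of 7.56, 7.45, 7.77 and 7.65 in titled GFP+ and 8.50, 9.02, 8.70 and 9.11 in titled GFP− of vehicle pools. In odor pools they were 7.997, 8.18, 8.01 and 7.45 in titled GFP+ and 9.02, 8.56, 8.75 and 8.77 in titled GFP−. The fractions did not overlap under either treatment, although no array placed the gene above the background level. The same was so for 12.3% of all features in this direction in vehicle and 14.2% in odor pools. The fitted difference was 1.23 ± 0.17 in vehicle and 0.87 ± 0.17 in odor pools (SE, n = 4; limma adjusted p = 7.44e-05 and 0.001901). The group means were 8.84 ± 0.28 in vehicle and 8.78 ± 0.19 in odor titled GFP−, and 7.91 ± 0.32 in odor and 7.61 ± 0.14 in vehicle titled GFP+ (SD, n = 4 each), with overlap between treatments in each fraction.

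Rasgrp4, the diacylglycerol-dependent Ras activator, was the exception. In vehicle pools its log2 signals were 10.07, 9.20, 9.23 and 8.55 in titled GFP+ and 9.53, 9.20, 9.06 and 9.49 in titled GFP−. In odor pools they were 10.44, 9.37, 10.01 and 9.28 in titled GFP+ and 9.97, 9.26, 9.32 and 9.69 in titled GFP−. All 4 groups overlapped, and titled GFP− was the higher fraction in 3 of 8 pools. Over both treatments the fitted difference was −0.08 ± 0.21, with a 95% interval of −0.52 to 0.365 (limma adjusted p = 0.7829). With most signals at background, a difference in level may be understated here. The group means ran from 9.78 ± 0.55 in odor titled GFP+ through 9.56 ± 0.33 in odor and 9.32 ± 0.23 in vehicle titled GFP− to 9.26 ± 0.62 in vehicle titled GFP+ (SD, n = 4 each).

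In the titled GFP+ arrays, of which 1 placed Rasgrp4 above background, the gene ranked the replicates as the neutrophil and the mast cell lists did. The mean log2 signal of the 11 markers was 14.07, 13.10, 13.96 and 12.44 in odor and 14.61, 12.998, 13.53 and 12.90 in vehicle replicates 1 to 4 of that fraction. The mean of the 13 mast cell and basophil markers was 6.16, 5.57, 5.90 and 5.435 in odor and 6.415, 5.51, 5.665 and 5.50 in vehicle replicates. In each treatment both lists rank the 4 arrays as Rasgrp4 does, whereas other leukocyte markers do so with odor and not with vehicle. Of the 13 mast cell and basophil markers, 12 in odor and 10 in vehicle titled GFP+ were above background on no array. The share of all features in that order is not given here, so the match is descriptive. Between treatments the neutrophil mean was higher with vehicle (13.51 against 13.39) and the Rasgrp4 mean higher with odor. In titled GFP− the mean of the neutrophil list was 5.37 to 6.03 and all 11 markers, S100a8, S100a9 and Ngp among them, were not above background on any array. The mast cell and basophil list averaged 4.4 to 4.66 in titled GFP−, where none of its markers was above background on any array. The 13 measured markers of other leukocytes averaged 9.19 to 11.04 in titled GFP+, and none was above background in titled GFP−. What part leukocyte RNA has in the Rasgrp4 signal was not tested.

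Pool by pool, the 4 genes that passed were higher in titled GFP− in 8 of 8 pools each, as were 15.9% of all features. The within-pool differences of S100a5 were 2.43, 0.71, 1.08 and 1.03 in odor pools and 0.94, 0.85, 1.13 and 1.07 in vehicle pools. Those of Pcp4l1 were 2.56, 1.24, 1.53 and 1.43 with odor and 1.46, 1.67, 1.65 and 1.89 with vehicle. Odor replicate 1 had the largest difference of both genes. Plcxd3 differed by 1.03, 0.38, 0.74 and 1.32 in odor and by 0.94, 1.57, 0.93 and 1.46 in vehicle pools. For each of the 4 genes the exact two-sided sign-flip permutation test over 8 pools gave p = 0.0078, the smallest it can give. For Rasgrp4, with −0.47, −0.11, −0.69 and 0.41 in odor and −0.54, 0.00, −0.17 and 0.94 in vehicle pools, the same exact permutation test gave p = 0.7031.

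**Figure D2:**
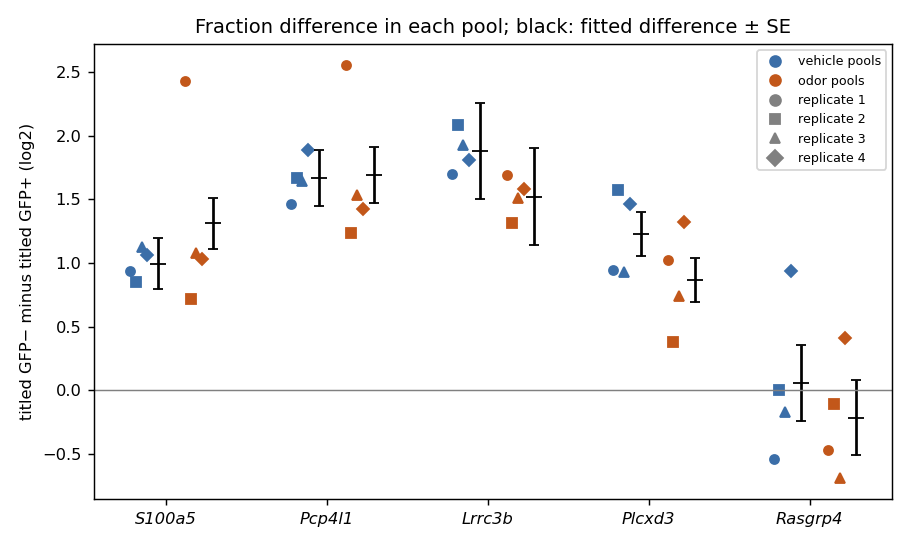
Titled GFP− minus titled GFP+ log2 signal (vertical axis) of the 5 genes in each of 8 pools; coloured symbols are pools by treatment and replicate, and black bars are the fitted difference ± SE. Odor replicate 1 stands highest for S100a5 (2.43) and Pcp4l1 (2.56), and the Rasgrp4 symbols lie on both sides of 0.

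Pools with a larger S100a5 difference also had a larger Pcp4l1 difference, but this rested on 2 pools. Over the 8 pools Pearson's r between the differences was 0.921 (exact permutation p = 0.0106, Benjamini-Hochberg adjusted p = 0.106 over 10 gene pairs), and Spearman's rho was 0.619 (exact permutation p = 0.115). Without odor replicates 1 and 2, the pools farthest from the median of S100a5, r was 0.145 (exact permutation p = 0.7681). Lrrc3b and Plcxd3 had r = 0.752 (exact permutation p = 0.0311, adjusted p = 0.1555) and rho = 0.667 (exact permutation p = 0.0831), and r = 0.215 (exact permutation p = 0.6806) without vehicle replicate 2 and odor replicate 2. For Pearson's r no other pair had an adjusted p under 0.41, for Spearman's rho no pair had one under 0.3308, and so no pair passed after adjustment. With 4 pools in each treatment, none was computed within a treatment.

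Odor and vehicle were then compared within each fraction, to ask whether the mixture changed these genes in cells of the same sort. None of the 5 genes passed in either fraction, and 0 of 19572 features passed (0%) in titled GFP− or titled GFP+ by limma. At an unadjusted p under 0.05, limma gave 805 and 2016 features. With the replicate number as a block 1 feature passed in each fraction, the protocadherin gene Pcdh10 (limma adjusted p = 0.002168 and 0.003092).

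S100a5 differed between odor and vehicle by 0.28 ± 0.20 in titled GFP− (SE, n = 4; 95% interval −0.14 to 0.70) and by −0.04 ± 0.20 in titled GFP+ (limma adjusted p = 0.9993 and 0.9735). Its odor and vehicle arrays did not overlap in titled GFP−, as was so for 1.51% of all features in that direction, but the nearest arrays both stood at 16.46. The interval corresponds to 0.91- to 1.63-fold. Pcp4l1 differed by −0.14 ± 0.22 and −0.16 ± 0.22, and Plcxd3 by −0.06 ± 0.17 and 0.30 ± 0.17, in titled GFP− and titled GFP+. Rasgrp4 differed by 0.24 ± 0.30 and 0.515 ± 0.30, with odor above vehicle in each of the 8 same-numbered pairs (0.05 to 0.785), mostly at background signals. S100a5 was higher with odor in 4 of 4 such pairs in titled GFP− (0.10 to 0.64) and in 3 of 4 in titled GFP+. Adjusted p was 0.9993 for all of these in titled GFP− and at least 0.5786 in titled GFP+ by limma. The share of all features with the same sign over such pairs is not given here, so the pair counts are descriptive.

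Lrrc3b had the largest odor-vehicle difference of the 5 genes. It was higher with odor by 0.71 ± 0.38 in titled GFP− (95% interval −0.09 to 1.51) and by 1.07 ± 0.38 in titled GFP+ (0.27 to 1.87), with limma adjusted p of 0.9993 and 0.3835. Set number against number, odor minus vehicle was 0.16, 1.09, 0.89 and 0.72 in titled GFP− for replicates 1 to 4. In titled GFP+ it was 0.17, 1.86, 1.31 and 0.95, so all 8 were positive. The share of all features positive in all 8 is not given here. With the replicate number as a block the SE fell to 0.215 and the adjusted p to 0.7693 and 0.152 by limma, so the difference did not pass there either.

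**Figure D3:**
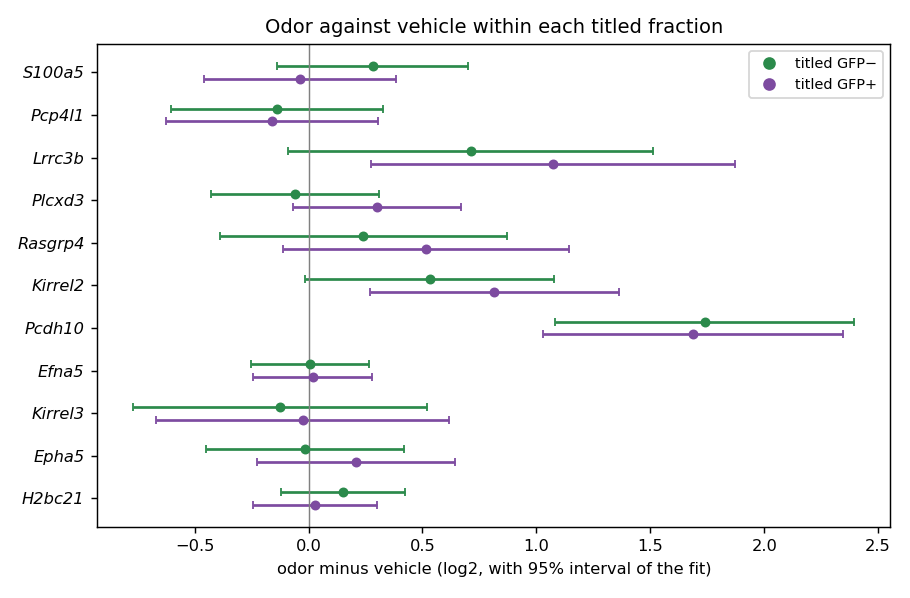
Odor minus vehicle (horizontal axis, log2) with its 95% interval within titled GFP− (green) and titled GFP+ (purple) for the 5 genes and 6 other activity-linked OSN genes. Among the 5 genes the interval of Lrrc3b in titled GFP+ (0.27 to 1.87) is the one that leaves out 0, and Pcdh10 stands farthest right in both fractions.

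Whether odor changed the difference between fractions was tested by the interaction, odor fraction difference minus vehicle fraction difference. It was 0.32 ± 0.28 for S100a5, with a 95% interval of −0.28 to 0.91, and −0.06 without odor replicate 1. For Pcp4l1 it was 0.02 ± 0.31, for Lrrc3b −0.36 ± 0.53, for Rasgrp4 −0.27 ± 0.42 and for Plcxd3 −0.36 ± 0.25. Limma adjusted p was 0.9997 for each. Of all features 0% passed, and 739 had an unadjusted p under 0.05. The intervals of Lrrc3b (−1.49 to 0.77) and Plcxd3 (−0.88 to 0.16) are wide next to the fraction differences themselves.

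Across the 16 arrays, S100a5 and Pcp4l1 followed each other at r = 0.918, S100a5 and Plcxd3 at 0.823 and Pcp4l1 and Plcxd3 at 0.869. These values describe arrays that share 4 groups and 8 pools. After subtraction of the group means r was 0.557 for S100a5 and Pcp4l1, 0.493 for Lrrc3b and Rasgrp4 and between −0.155 and 0.218 for the remaining pairs. Rasgrp4 had r of −0.163 to 0.323 with the other genes before that subtraction.

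The features most like each gene were sought among 6044 that lay above background on at least 8 arrays. S100a5 was most like the receptor genes Olfr1262 (r = 0.942) and Olfr1037 (0.939) and the kinase gene Dyrk4 (0.937). Pcp4l1 was most like Ggact (0.973), the receptor gene Olfr705 (0.968) and Pde1c (0.963), a calmodulin-dependent phosphodiesterase of OSN cilia. Plcxd3 was most like Olfr125 (0.926), the sodium-calcium exchanger gene Slc8a1 (0.919) and Olfr694 (0.917). Rasgrp4 was most like Actn1 (0.842), Xiap (0.84) and Trp53inp2 (0.814), with lower values than the others had.

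Lrrc3b was most like Kirrel2 (r = 0.957 over 16 arrays), whose adhesion molecule on OSN axons is produced according to activity, then Rgs3 (0.916) and Rasl11a (0.903). After subtraction of group means, Lrrc3b and Kirrel2 still had r = 0.829. Kirrel2 averaged 14.37 ± 0.41 in vehicle and 14.90 ± 0.375 in odor titled GFP−, and 13.19 ± 0.50 in vehicle and 14.001 ± 0.26 in odor titled GFP+ (SD, n = 4 each), the same order of groups as Lrrc3b. Its odor-vehicle difference was 0.53 ± 0.26 in titled GFP− and 0.82 ± 0.26 in titled GFP+ (SE), with limma adjusted p of 0.9993 and 0.3521, so it did not pass either.

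**Figure D4:**
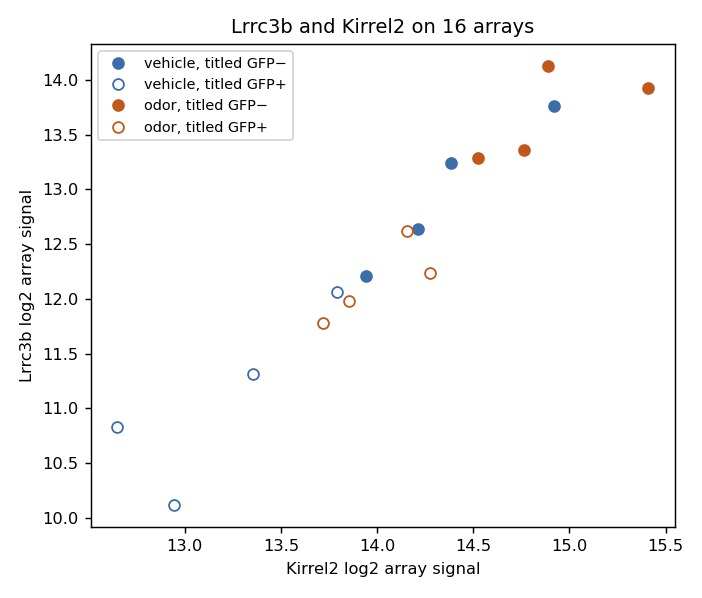
Log2 array signal of Lrrc3b (vertical axis) against Kirrel2 (horizontal axis) on 16 arrays; fill marks the titled fraction and colour the treatment. The points run from vehicle titled GFP+ at the lower left to odor titled GFP− at the upper right (r = 0.957 over the 16 arrays).

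Within groups, the likeness lists changed. After subtraction of group means S100a5 was most like Ccdc146 (r = 0.942), Txndc9 (0.941) and Cacybp (0.936), and these fell to 0.884, 0.909 and 0.868 without the titled GFP+ array of odor replicate 1. Pcp4l1 was then most like Psmc2 (0.939), Ctnnbl1 (0.935) and U2af1 (0.904), and Lrrc3b like D6Wsu163e (0.942), Tdp1 (0.912) and Bcl6 (0.896). Rasgrp4 was most like Pdcd6ip (0.903), Csf3r (0.892) and Trp53inp2 (0.888), and Plcxd3 like Qars (0.817), Mbtd1 (0.732) and Gapvd1 (0.728). Csf3r, the receptor of neutrophils for granulocyte colony-stimulating factor, averaged 11.45 ± 1.22 in odor and 11.02 ± 1.22 in vehicle titled GFP+ and 5.16 and 5.11 in titled GFP−.

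Of 3 other measured genes known to rise with OSN activity, 2 were higher in titled GFP− over both treatments, where 21.9% of all features were. Kirrel2 was higher by 1.04 ± 0.18 and Pcdh10 by 1.06 ± 0.22 (SE, n = 8 pools; limma adjusted p = 0.000343 and 0.001405). Efna5, an ephrin, differed by −0.07 ± 0.09 (limma adjusted p = 0.5274). Of 3 genes known to fall with activity, 1 was higher and 0 lower, beside 21.9% and 13.7% of all features. Epha5, an ephrin receptor, was higher in titled GFP− by 0.84 ± 0.145 (limma adjusted p = 0.0002992). Kirrel3 differed by −0.28 ± 0.215 (adjusted p = 0.3194, or 0.02562 with the pool as a block) and the histone gene H2bc21 by 0.04 ± 0.09 (adjusted p = 0.7712), both by limma. When each array was centred on the median of its olfactory receptors (receptor centring), the calls of Kirrel2, Pcdh10 and Epha5 were lost, at 0.67, 0.695 and 0.47, and Kirrel3 was called lower at −0.65 (limma adjusted p = 0.008455).

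Family members of the 5 genes moved in both directions. Of 15 other S100 genes and S100pbp, the gene of a protein that binds S100P, 4 were higher and 6 lower in titled GFP− over both treatments, against 21.9% and 13.7% of all features, with a median of −0.05. When each array was centred on the median of its tested features (median centring), 9 were higher and 6 lower, with a median of 0.30. The median over all features was 0.50 under that centring, so these counts are not comparable with the shares above. S100a8 and S100a9, the calprotectin genes of neutrophils, were the lowest, at least 49.8- and 40.3-fold higher in titled GFP+ of vehicle pools and not above background in titled GFP−. S100a11 was at least 19.1-fold higher there (limma adjusted p over both treatments up to 2.855e-11 for the 3 genes), and S100a10, S100a6 and S100a4 differed by −1.79, −1.30 and −1.20 (limma adjusted p up to 0.0001055). These bounds set the bright group's mean against the lowest signal that counts as above background in the dim group. S100a4 and S100a6 were above background on 0 arrays. Of the 16 genes of the list 4 were above background on at least 1 array. With only features above background on 4 or more arrays, 0 of 4 were higher and 3 lower.

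S100a3 differed by 0.88 ± 0.13, S100a13 by 0.76 ± 0.20, S100z by 0.59 ± 0.17 and S100a14 by 0.39 ± 0.12 (SE, n = 8 pools; limma adjusted p up to 0.02058), none of them above background on any array. S100a14 was lost without odor replicate 1 or 2 or vehicle replicate 1 (adjusted p up to 0.07832). Under receptor centring S100a3 alone remained called among the 4. S100a1, S100a7a, S100a16, S100b, S100g and S100pbp differed by −0.07 to 0.215 and did not pass. S100a8 and S100a9 also stand in the neutrophil list.

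**Figure D5:**
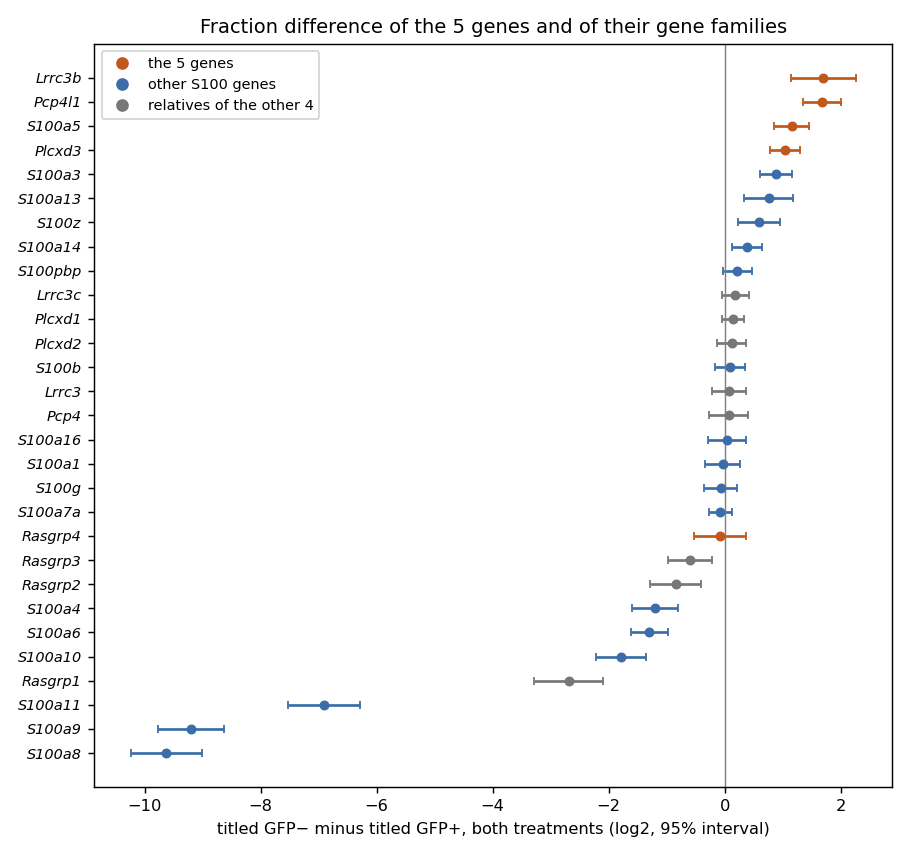
Titled GFP− minus titled GFP+ over both treatments (horizontal axis, log2, with 95% interval) for the 5 genes (orange), 16 genes of the S100 list (blue) and 8 relatives of the other 4 genes (grey). Lrrc3b, Pcp4l1, S100a5 and Plcxd3 lie at the top from 1.70 to 1.05, and S100a8 and S100a9 at the bottom below −9.

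None of the 8 relatives of the other genes was called higher and 3 were called lower, all of them RasGRP exchange factors, against 21.9% and 13.7% of all features. Rasgrp1, a Ras activator of lymphocytes, differed by −2.69 ± 0.28, Rasgrp2 by −0.84 ± 0.205 and Rasgrp3 by −0.60 ± 0.18 (limma adjusted p = 1.378e-06, 0.004795 and 0.01661). Rasgrp2 was lost after renewed quantile normalization, and Rasgrp3 without odor replicate 3 and under median centring. Pcp4 differed by 0.07, Lrrc3 by 0.07, Lrrc3c by 0.19, Plcxd1 by 0.14 and Plcxd2 by 0.12, and none passed. Under median centring these 5 genes were called higher, with the median over all features at 0.50. None of the 8 was above background on any array.

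Genes of calmodulin, Ras to ERK and diacylglycerol signalling were read from 3 lists. Whether the 5 proteins act in these routes was not tested. Of 16 measured genes of calmodulin and its kinases, 1 was higher and 4 were lower in titled GFP− over both treatments, where 21.9% of all features were higher and 13.7% lower. Gap43, a calmodulin-binding growth cone protein of immature OSNs, differed by −2.69 ± 0.22, Camk1d by −0.65 ± 0.11, Nrgn, the calmodulin-binding neurogranin, by −0.53 ± 0.11 and the kinase gene Camk2b by −0.92 ± 0.19 (limma adjusted p up to 0.001688). Gap43 is also in the immature OSN list, of which 9 of 15 markers were lower. Nrgn was lost after quantile normalization and under median centring, which turned the list to 9 higher and 3 lower. The median of the list was then 0.39, beside 0.50 over all features. Of the 16 genes 7 were above background on at least 1 array. With only features above background on 4 or more arrays, 1 of 7 was higher and 1 lower.

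Of 15 measured genes of the Ras to ERK cascade, 1 was higher and 4 were lower, beside the same 21.9% and 13.7% of all features. The GTPase genes Nras and Rras differed by −0.64 ± 0.11 and −0.73 ± 0.14, and the exchange factor genes Sos2 and Rasgrf2 by −0.41 ± 0.09 and −0.68 ± 0.16 (limma adjusted p up to 0.003567). Sos2 and Rasgrf2 were lost under median centring, under which 11 genes were higher and 2 lower. The median of the list was then 0.37, beside 0.50 over all features. Of the 15 genes 10 were above background on at least 1 array. The filter to features above background on 4 or more arrays kept 9, with 1 higher and 1 lower. Of 25 measured genes of diacylglycerol and phospholipase C signalling, 5 were higher, a share near the 21.9% of all features, and 8 lower, against 13.7%. The diacylglycerol kinase genes Dgki and Dgka differed by −2.20 ± 0.11 and −3.02 ± 0.23 and the protein kinase C genes Prkcd and Prkcb by −3.05 ± 0.21 and −4.79 ± 0.37 (limma adjusted p up to 3.269e-08). Under receptor centring 0 were higher and 10 lower, and under median centring 12 and 7. The list medians were then −0.44 and 0.28, beside −0.22 and 0.50 over all features. Of the 25 genes 9 were above background on at least 1 array. The same filter kept 4 of them, with 1 higher and 1 lower.

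Leukocyte markers were read beside these lists. All 11 neutrophil and all 13 other leukocyte markers, and 6 of 13 mast cell and basophil markers, were lower in titled GFP− over both treatments, where 13.7% of all features were lower. Neutrophil and other leukocyte markers had medians of −8.78 and −4.23. The calmodulin, Ras to ERK and phospholipase C lists had medians of 0.04, 0.02 and −0.075. Of the mast cell and basophil list 2 were higher, against 21.9%. All 3 measured erythroid markers and 7 of 9 sustentacular markers were lower as well. Of the 18 mature OSN markers 10 were higher and 0 lower, with a median of 0.22 beside 0.15 over all features. Under receptor centring 0 were higher, and the median was −0.145 beside −0.22 over all features. What part the other cell types have in the list counts was not tested.

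The genes next to the 5 on their chromosomes, picked after the values were known and ordered by start in RefSeq, were read over both treatments. Beside S100a5, S100a2, which was not in the S100 list, differed by 0.43 (limma adjusted p = 0.1242) and S100a4 and S100a6 by −1.20 and −1.30. S100a7a differed by −0.07. Beside Pcp4l1, Sdhc differed by 0.47 and Tomm40l by 0.37, and beside Lrrc3b, Oxsm by 0.43 and Ngly1 by 0.31 (limma adjusted p up to 0.03173). Beside Plcxd3, Oxct1 differed by 0.22 (limma adjusted p = 0.2066) and Mroh2b by 0.61, while beside Rasgrp4, Map4k1 differed by −1.94 and Ryr1 by 0.38. The other 8 neighbours did not pass: Cfap126 and Nr1i3 beside Pcp4l1 differed by 0.15 and 0.24, Il3ra and Nek10 beside Lrrc3b by −0.31 and 0.21, Fam98c and Spred3 beside Rasgrp4 by 0.42 and 0.15, and AW549877 and C6 beside Plcxd3 by −0.22 and 0.21. Cfap126, AW549877 and Oxct1 were above background on 16 arrays, Sdhc on 15, Nek10 on 14, Fam98c on 1 and the other neighbours on none.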

How the data were processed

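Gene expression was read from the deposited log2 signals of 16 arrays, made by the authors with Affymetrix Expression Console, per the submitters' processing notes. The background correction, normalization and version are not given in the sources used here, and the log2 unit was read from the value range of 1.77 to 19.3. Of 28846 entries, 19572 carried 1 gene symbol by GEO's platform annotation and were tested. A model with 1 mean per group was fitted to all tested features with limma (limma 3.58.1, R 4.3.3), checked on simulated data, with two-sided tests adjusted by Benjamini-Hochberg. A feature was above background where it exceeded the 95th percentile of the array's 5222 negative controls.

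Within-pool tests enumerated all sign flips. Named were the 5 genes in every comparison, the listed family members, up to 4 genes per list with the smallest adjusted p, and the 3 features most like each gene. The members and lists were chosen with earlier results of these data known. Of the listed genes 18 had no feature measured here. Promoter stretches and neighbours came from RefSeq tables of GRCm38.p6.

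Both fractions of a pool come from the same 3 mice by the titles. Deviations from group means correlated at 0.096 to 0.245 within odor pools and 0.188 to 0.337 within vehicle pools. Same-numbered odor and vehicle arrays correlated at 0.178 to 0.379 in titled GFP− and 0.147 to 0.547 in titled GFP+. Those of different number ran from −0.251 to 0.141 and from −0.497 to 0.2, so the ranges overlapped in titled GFP+. Odor and vehicle pools are different mice, and the replicate number is a block only in an alternative fit. Alternatives covered scaling, a filter on dim features, the variance model, array weights, the samples fitted, replicate blocks and each pool left out. The number of arrays limits precision. P-values of the main limma fit measure the spread of arrays within groups. That fit does not pair the fractions of a pool, and the pool is a block only in an alternative fit. The sign-flip tests use the differences within pools.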

Additional observations from a re-analysis of the deposited data

Results flagged for a closer look

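In the titled GFP− fraction of odor pools, the S100a5 signal of replicate 1, 17.08, stood far from the other 3 arrays, which lay between 16.46 and 16.56. Its gap to the nearest array was 0.846 of the group's range, above the limit of 0.829 for 4 values. The same pool held the lowest S100a5 value in titled GFP+, 14.65. It was 1 of 30 groups of 4 values examined, and chance alone sets apart about 1 group in 20.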

How the results depend on the processing

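The fraction differences of S100a5, Pcp4l1, Lrrc3b and Plcxd3 kept their direction under every alternative run. Of 548 refitted values of the 5 genes, 545 kept their side of the threshold. That total includes the odor-vehicle differences, the interactions and all values of Rasgrp4, which did not pass in the main fit and could only gain a call. The 3 values that changed side were S100a5 in vehicle pools (0.72, limma adjusted p = 0.1074), Lrrc3b in odor pools (1.06, adjusted p = 0.1438) and Plcxd3 in odor pools (0.40, adjusted p = 0.3848), all with arrays centred on the receptor median. That centring moved the median over all features from 0.15 to −0.22 over both treatments, and centring on each array's median of tested features (median centring) moved it to 0.50. The dim filter kept 6767 features and removed Rasgrp4 and Plcxd3, so it gave no value for them. A fit of only the groups compared was the same fit for the differences over both treatments and the interaction.

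Counts of called features in vehicle pools, odor pools and both were 13985, 11192 and 16234 after median centring, 2171, 2783 and 4024 on the receptor median, and 1261, 2197 and 2983 with the dim filter. List counts under a centring are thus to be read beside these counts and not beside the shares of the main fit. The higher and lower calls split 1380 to 1922 in vehicle pools as deposited, 12456 to 1529 and 342 to 1829 under the centrings, 471 to 2863 centred on mature OSN markers and 2643 to 1863 after quantile normalization. In odor pools the splits were 2385 to 1953, 9658 to 1534, 343 to 2440, 831 to 2723 and 2930 to 1956. Leaving out 1 pool gave 2138 (without vehicle replicate 1) to 3867 features in vehicle pools, 2689 (without odor replicate 1) to 4255 in odor pools and 5541 to 6561 over both; in the odor-vehicle comparisons and the interaction 0 passed.

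With the replicate number as a block 1 feature passed in titled GFP− and 1 in titled GFP+ between odor and vehicle; neither this block nor the pool block changed a call of the 5 genes. Without the 2 farthest pools the correlations of S100a5 with Pcp4l1 and Lrrc3b with Plcxd3 were 0.145 and 0.215. Leaving out the titled GFP+ array of odor replicate 1 alone, chosen after seeing the data, changed no call of the 5 genes. The causes were not tested. Signals near background limit Plcxd3 and Rasgrp4.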
